A study of Mus musculus with 48 samples.

Results

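These 8 genes are the 3 PPAR isotypes (Ppara, Ppard, Pparg), the 3 retinoid X receptors (Rxra, Rxrb, Rxrg) and the 2 PGC-1 coactivators (Ppargc1a, Ppargc1b). They were followed through every non-control probe whose gene name on the array is among the 8, which gave 15 probes. Of these, 14 were among the 33323 probes tested on the whole array, and the tested probes carried 22029 gene names. All 14 were well above background on 48 of 48 arrays. The remaining Pparg probe, A_55_P2745190, was well above background on 2 of 48 arrays and was not tested, so no level is given for it.

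Pparg rose in the liver of mice fed a high-fat diet in all 3 genotypes studied, and it was higher than in wild type on the control diet when Pparα had been deleted in hepatocytes. Without array weights, the diet call held in Pparα-/- mice alone. Rxrg, the gene of a heterodimer partner of the PPARs, rose on the high-fat diet in wild-type mice by 1.11 on the log2 scale. As a plain difference of group means that rise was 0.77. Rxrg was higher than in wild type in both deletion lines on the control diet. Ppargc1a fell on the high-fat diet in wild-type mice and was low on the control diet in whole-body Pparα-/- mice but not in hepatocyte-deleted mice. Ppargc1b fell on the high-fat diet in both deletion lines, by -0.45 to -0.50 where called, and these calls were lost without array weights. In wild-type mice its 2 probes gave -0.30 and -0.34, uncalled, and no difference in its response between genotypes was called. The called differences of Rxra and Rxrb lay between -0.29 and 0.24, and Ppard passed in no comparison.

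PPARs are nuclear receptors that are activated by fatty acids and their derivatives. Each binds DNA as a heterodimer with a retinoid X receptor, at paired copies of a short core sequence, and recruits coactivators such as PGC-1α. In liver, PPARα drives fatty acid oxidation and ketone body production in hepatocytes, PPARγ is the regulator of fat storage genes in adipocytes and is low in lean liver, and PGC-1α is known for its part in gluconeogenesis and mitochondrial biogenesis.

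Liver RNA came from 48 male C57BL/6J mice, 8 in each of 6 groups, and each mouse was measured on 1 single-colour Agilent array. The 3 genotypes were wild type (WT), mice lacking Pparα in hepatocytes (Pparα hep-/-, also called the hepatocyte line), in which Cre recombinase under the albumin promoter removes exon 4 of a floxed Pparα, and mice lacking Pparα in the whole body (Pparα-/-). Each genotype received a control diet (CTRL) or a high-fat diet (HFD) with 60% fat, and the labels give an age of 20 weeks with 12 weeks of diet, whereas the methods of the study state a shorter feeding period. All groups were kept at thermoneutrality, and the WT mice came from a commercial breeder whereas both deletion lines were bred in house. The arrays lay on 6 slides washed in 2 batches, with 3 to 5 arrays of each group in a batch. In whole liver, fewer cells of a type and less RNA per cell cannot be told apart.

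All 6 hepatocyte markers were measured, and the median of their summed linear signal lay between 1713000 and 1742000 in the 6 groups. Of the 5 white adipocyte markers, Adipoq and Plin1 did not pass the filter on dim probes, and the median sum of the other markers was 462 in WT CTRL and 18770 in WT HFD. In the Pparα hep-/- and Pparα-/- groups that median lay between 263 and 345. In WT mice 1 of the 3 tested markers, Cfd (adipsin), was called higher on the HFD. Of the 5 markers of recruited macrophages, 4 were called higher on the HFD in Pparα hep-/- mice (80%, against 22.5% of all gene names called). In Pparα-/- mice 4 were called higher as well (80%, against 26.4%). In WT mice none was called higher and 1 lower (20%, against 19.5%). The lowest array weights in the fit were those of Pparα hep-/- CTRL mouse 1 (0.189), WT CTRL mouse 6 (0.208), WT HFD mouse 2 (0.343) and WT HFD mouse 6 (0.372).

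The promoter windows of Pparg and Rxrg are shown because these were the members that moved most with diet in WT mice. A window runs from 250 bases before to 50 bases after a transcription start in RefSeq (GRCm38.p6), and 7 of the 8 members had at least 1, with 12 windows in all. Capitals mark AGGTCA, the core sequence that PPARs, RXRs and many other nuclear receptors bind, searched on both strands.
Pparg, chr6:115360894-115361193, + strand: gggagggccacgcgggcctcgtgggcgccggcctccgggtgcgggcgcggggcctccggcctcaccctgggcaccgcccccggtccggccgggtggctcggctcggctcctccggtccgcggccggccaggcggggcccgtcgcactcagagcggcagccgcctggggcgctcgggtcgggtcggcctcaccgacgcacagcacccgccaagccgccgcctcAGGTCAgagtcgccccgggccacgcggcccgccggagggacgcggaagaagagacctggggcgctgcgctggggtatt
Pparg, chr6:115362099-115362398, + strand: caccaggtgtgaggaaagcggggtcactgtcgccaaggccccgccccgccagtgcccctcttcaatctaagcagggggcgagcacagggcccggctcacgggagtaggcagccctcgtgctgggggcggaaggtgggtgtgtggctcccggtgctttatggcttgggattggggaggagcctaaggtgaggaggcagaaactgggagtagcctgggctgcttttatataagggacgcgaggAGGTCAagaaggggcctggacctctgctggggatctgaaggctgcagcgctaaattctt
Rxrg, chr1:167618015-167618314, + strand: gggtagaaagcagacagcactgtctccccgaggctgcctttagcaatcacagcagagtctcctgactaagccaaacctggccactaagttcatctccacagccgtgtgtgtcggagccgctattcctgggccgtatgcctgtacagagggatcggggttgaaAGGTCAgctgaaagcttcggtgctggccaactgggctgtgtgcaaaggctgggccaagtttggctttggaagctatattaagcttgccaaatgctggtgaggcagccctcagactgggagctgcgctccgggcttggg

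The core sequence begins 28 and 9 bases before the start in these Pparg windows and 88 bases before it in the Rxrg window. It occurred in 4 of the 12 member windows and in 5340 of 32851 windows of the whole table (16.3%), so its presence does not set the members apart. The third Pparg window (chr6:115421816-115422115) and the other Rxrg window (chr1:167598112-167598411) did not hold these letters. A direct repeat of AGGNCA with 1 base between the copies, searched on both strands, was in 0 of the 12 member windows and in 0.381% of all windows. The tested Pparg probe, A_51_P106799, lies at chr6:115440213-115440272 and the Rxrg probe, A_51_P513311, at chr1:169569624-169569683, both in mm9, which is another build than that of the windows.

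Probes of 2 other members are shown: the Ppargc1a probe at which Pparα-/- CTRL mice were separate from the other CTRL groups, and the 2 Rxrb probes that were called only between genotypes on the HFD. The Ppargc1a probe A_55_P2745394 (mm9, chr5:51849419-51849478, - strand) ends at a TAA triplet, the stop of the PGC-1α reading frame, given in capitals. The Rxrb probe A_55_P2718880 (mm9, chr17:34173894-34174155, + strand) spans 262 bases of genome with its 60 bases, and A_51_P314830 (mm9, chr17:34173690-34173864, + strand) spans 175, so each crosses a gap in the genome. No capitals are marked in these.
Ppargc1a A_55_P2745394: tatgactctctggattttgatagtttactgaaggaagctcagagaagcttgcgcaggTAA
Rxrb A_55_P2718880: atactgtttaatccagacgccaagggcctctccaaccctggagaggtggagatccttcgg
Rxrb A_51_P314830: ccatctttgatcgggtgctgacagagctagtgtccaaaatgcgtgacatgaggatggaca

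**Figure D1:**
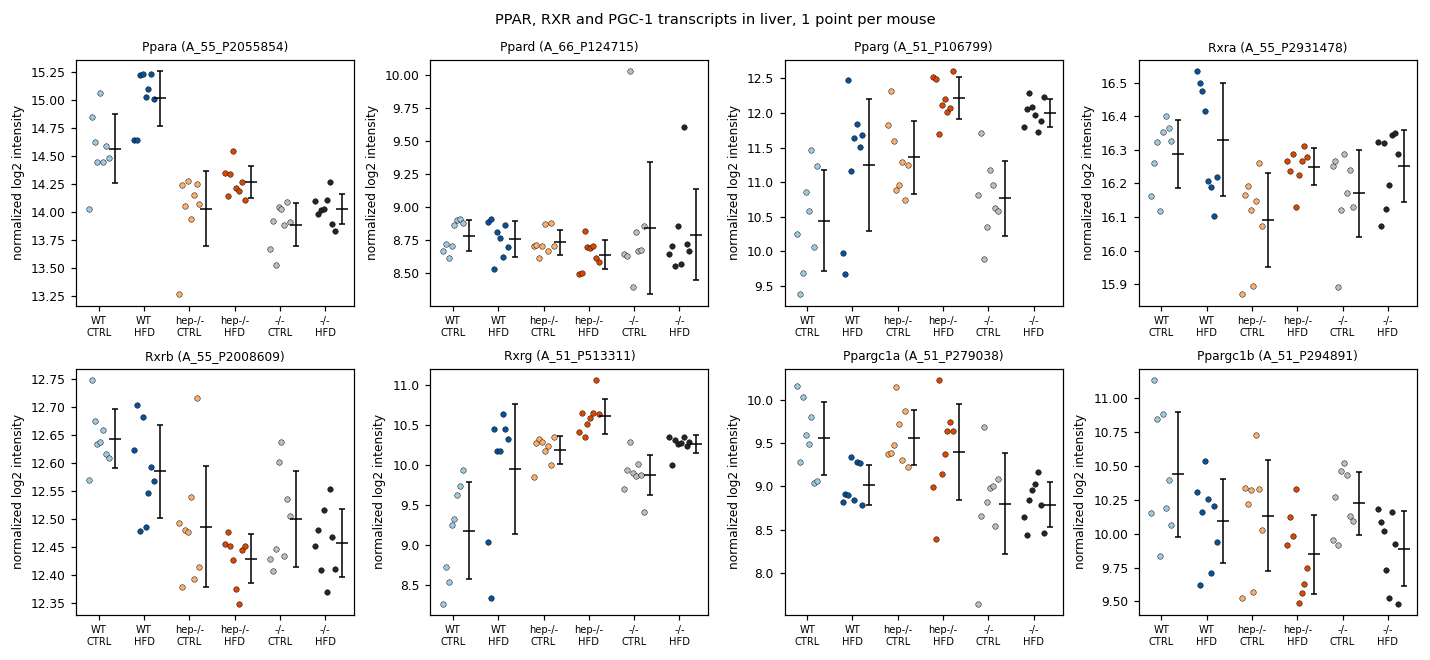
Normalized log2 intensity of the brightest probe of each of the 8 genes in each mouse (points), with the group mean and SD beside them; groups are WT, Pparα hep-/- (hep-/-) and Pparα-/- (-/-) on the CTRL diet and the HFD. Pparg and Rxrg show the widest spread among WT mice, and the axes differ between panels, so levels are not compared between genes.

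Ppara, the targeted gene, had 2 probes. At A_55_P2055854 the normalized log2 intensity in WT CTRL mice was 14.03 at the lowest, 14.54 at the median and 15.07 at the highest, and in WT HFD mice it was 14.65, 15.07 and 15.24. The same 3 values for the hepatocyte line were 13.26, 14.11 and 14.28 on the CTRL diet and 14.11, 14.24 and 14.54 on the HFD. For Pparα-/- mice the values were 13.53, 13.92 and 14.09 on the CTRL diet and 13.83, 14.03 and 14.27 on the HFD. On the HFD neither deletion group overlapped with WT. The exons were not placed here, so the position of the probes relative to exon 4 is unknown and their remaining signal does not check the deletion.

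Ppara rose on the HFD in WT mice by 0.52 ± 0.10 (log2, SE) at A_55_P2055854 (limma, adjusted p = 0.000186) and by 0.48 ± 0.09 at A_55_P2071596 (adjusted p = 0.00025). The hepatocyte line gave 0.10 (adjusted p = 0.449) and -0.09 (adjusted p = 0.436). As plain differences of group means these were 0.24, with 8 of 8 mice above the CTRL mean, and 0.02. Neither was called without array weights. On the CTRL diet Pparα hep-/- lay below WT by 0.42 at A_55_P2055854 (adjusted p = 0.000887). At A_55_P2071596 the value was -0.10 (adjusted p = 0.454), or -0.20 without WT CTRL mouse 1 (adjusted p = 0.0887) and -0.23 without array weights (adjusted p = 0.179), and the difference between the probes was not tested. Pparα-/- lay below WT by 0.65 and 1.11 at these probes (adjusted p = 1.1e-06 and 5.27e-13). At A_55_P2071596 the HFD raised Ppara in Pparα-/- mice by 0.30 (adjusted p = 0.00636) with no overlap between the diets, whereas A_55_P2055854 gave 0.09 (adjusted p = 0.49) with overlap.

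The HFD response of Ppara in Pparα hep-/- minus that in WT was -0.42 at A_55_P2055854 (adjusted p = 0.029) and -0.58 at A_55_P2071596 (adjusted p = 0.00234). Without array weights these differences were -0.22 (adjusted p = 0.602) and -0.37 (adjusted p = 0.295). The first was also lost without WT CTRL mouse 1 (-0.33, adjusted p = 0.0743), WT CTRL mouse 4 (-0.37, adjusted p = 0.061), WT HFD mouse 7 (-0.39, adjusted p = 0.0725) or Pparα hep-/- CTRL mouse 4 (-0.40, adjusted p = 0.0573). It passed in 8 of 14 alternative settings, and failed as well without the wash term or the filter, with slide or replicate as a block, and with only the groups compared. For Pparα-/- minus WT the response at A_55_P2055854 differed by -0.43 (adjusted p = 0.0228), by -0.30 without array weights (adjusted p = 0.277), and by -0.34 and -0.38 without WT CTRL mouse 1 or 4 (adjusted p = 0.0538 and 0.056). The other probe gave -0.18 (adjusted p = 0.349). For Pparα-/- minus Pparα hep-/- it differed by 0.40 at A_55_P2071596 (adjusted p = 0.044), by 0.30 without array weights (adjusted p = 0.538), and passed in 28 of 48 fits that left out 1 array, whereas A_55_P2055854 gave -0.01 (adjusted p = 0.99).

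On the HFD Ppara was lower in Pparα-/- mice than in the hepatocyte line by 0.61 at A_55_P2071596 (adjusted p = 1.9e-08) and by 0.23 at A_55_P2055854 (adjusted p = 0.0238). The latter was -0.23 without array weights (adjusted p = 0.182) and was lost without Pparα-/- HFD mouse 7 (-0.21, adjusted p = 0.0614) or mouse 8 (-0.21, adjusted p = 0.0632).

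Ppard, the broadly expressed PPAR isotype, had 1 probe and did not pass the test in any of the 12 comparisons. Its group medians lay between 8.65 and 8.79. The 9 differences between groups lay between -0.11 and 0.11, and the 95% interval of the HFD difference in WT mice ran from -0.23 to 0.23. Pparα-/- CTRL mouse 3 (10.03) and Pparα-/- HFD mouse 6 (9.60) stood above all other mice.

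Pparg was higher on the HFD in each genotype. Its lowest, median and highest log2 intensities were 9.38, 10.42 and 11.46 in WT CTRL mice and 9.68, 11.57 and 12.47 in WT HFD mice. For the hepatocyte line these were 10.75, 11.27 and 12.31 on the CTRL diet and 11.69, 12.16 and 12.61 on the HFD. For Pparα-/- mice these were 9.90, 10.72 and 11.71 on the CTRL diet and 11.72, 12.02 and 12.28 on the HFD. In Pparα-/- mice the diets did not overlap, while in WT mice HFD mice 1 (9.97) and 2 (9.68) lay below the CTRL median and the other 6 at 11.17 or above. The same pair had the lowest Rxrg values of their group.

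**Figure D2:**
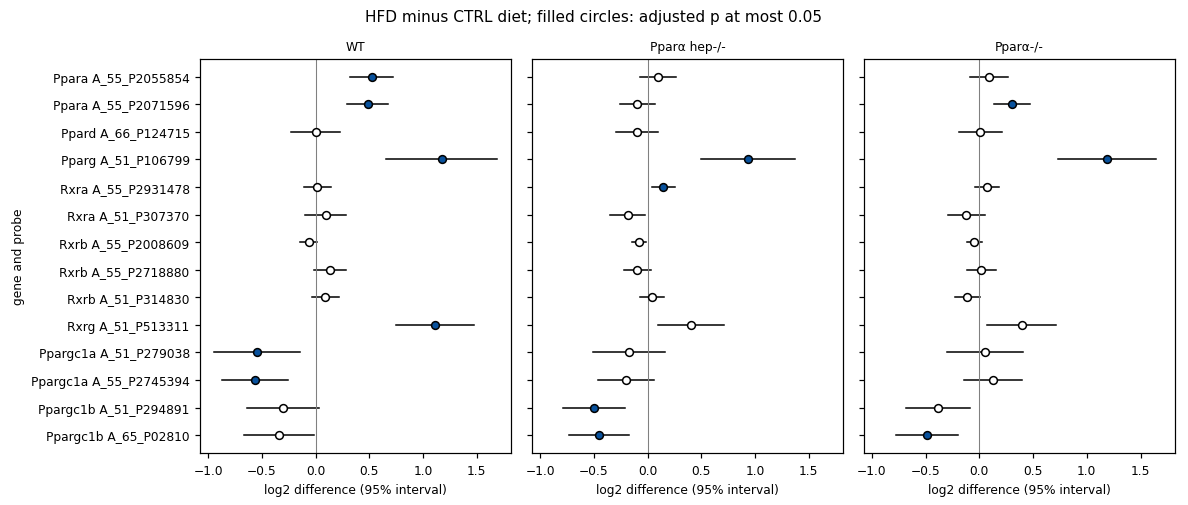
Log2 difference between the HFD and the CTRL diet, with its 95% interval, for the 14 tested probes in each genotype; filled circles passed at an adjusted p of at most 0.05. Pparg lies to the right of 0 in all 3 genotypes (0.94 to 1.19), whereas Rxrg is filled in WT alone.

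The HFD minus CTRL difference of Pparg was 1.17 ± 0.26 in WT (2.25-fold, adjusted p = 0.000871), 0.94 ± 0.22 in Pparα hep-/- (1.91-fold, adjusted p = 0.0018) and 1.19 ± 0.23 in Pparα-/- mice (2.28-fold, adjusted p = 0.000175). The 3 responses were not distinguishable: Pparα hep-/- minus WT was -0.24 (95% interval -0.91 to 0.44) and Pparα-/- minus WT was 0.02 (-0.67 to 0.70). Without array weights the difference was 0.80 in WT (adjusted p = 0.057) and 0.92 in Pparα hep-/- mice (adjusted p = 0.0634), so that only the Pparα-/- call held (1.24, adjusted p = 0.00383). Within wash batch 1 and batch 2 the Pparg differences were 1.27 and 1.27 in WT, 1.35 and 0.67 in Pparα hep-/- and 1.51 and 0.95 in Pparα-/- mice, and the batch 2 value missed the threshold in WT (adjusted p = 0.0552) and Pparα hep-/- mice (adjusted p = 0.173).

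The genotypes also differed in Pparg. Pparα hep-/- mice exceeded WT by 0.95 ± 0.25 on the CTRL diet (adjusted p = 0.00341), with 8 of 8 mice above the WT mean, and by 0.72 ± 0.22 on the HFD (adjusted p = 0.0146). Pparα-/- mice differed from WT by 0.50 (adjusted p = 0.132) and 0.52 (adjusted p = 0.0527), the latter being 0.76 without array weights (adjusted p = 0.0383). By group mean the order rose from WT CTRL (10.44) through Pparα-/- CTRL (10.77), WT HFD (11.24), Pparα hep-/- CTRL (11.36) and Pparα-/- HFD (12.00) to Pparα hep-/- HFD (12.22). The first and the last pair of neighbours did not differ beyond their spread (adjusted p = 0.132 and 0.52), and the other neighbours were not compared.

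Markers of other cell types moved in the same comparisons. In WT mice the white adipocyte marker sum ran from 266 to 1232 on the CTRL diet and from 425 to 47020 on the HFD. Of its 3 tested markers 1, Cfd, was called higher (33.3%, against 19.5% of all gene names). The brown adipocyte sum of WT mice, over 3 of 4 markers, had medians of 2714 and 5030 on these diets, with 2 markers called higher (66.7%). The brown marker left out, Ucp1, did not pass the filter on dim probes. The white adipocyte sum had medians of 286 and 345 in Pparα hep-/- and 263 and 293 in Pparα-/- mice, and the brown adipocyte sum 4420 and 3079, and 2169 and 1024. The recruited macrophage marker sum had medians of 2389 and 4467 in Pparα hep-/- mice, 2110 and 5060 in Pparα-/- mice and 2086 and 1718 in WT mice on these diets. In the same order the stellate cell sum had 4019 and 7003, 4258 and 7311, and 3127 and 2903. The Kupffer cell sum had 27170 and 32960, 23220 and 35710, and 19670 and 20910. The endothelial sum had 7664 and 8998, 10630 and 13330, and 6115 and 7172. The part of these cells in the Pparg values was not tested.

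Rxrg, which encodes RXRγ, was the RXR that changed most. Its lowest, median and highest log2 intensities were 8.27, 9.29 and 9.94 in WT CTRL mice and 8.34, 10.25 and 10.64 in WT HFD mice. The hepatocyte line ran at 9.85, 10.25 and 10.34 on the CTRL diet and 10.35, 10.61 and 11.06 on the HFD, with no overlap, though the nearest mice of the diets all but touch. Pparα-/- mice ran at 9.41, 9.89 and 10.29 on the CTRL diet and 10.002, 10.28 and 10.35 on the HFD. The WT CTRL group was thus the low group, and the SD fell from 0.61 in WT CTRL and 0.81 in WT HFD mice to between 0.11 and 0.25 in the deletion groups.

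On the HFD Rxrg rose in WT mice by 1.11 ± 0.18 (2.16-fold, adjusted p = 2.15e-05), with 6 of 8 mice above the CTRL mean. The plain difference of group means, without weights, was 0.77. The call passed in 14 of 14 alternative settings, with a highest adjusted p of 0.0181. The higher adipocyte marker sums of WT HFD mice, given with Pparg, belong to the same comparison. Of the 3 tested white markers only Cfd was called there. The part of these sums in the Rxrg values was not tested. The difference was 0.40 in Pparα hep-/- (adjusted p = 0.0543) and 0.40 in Pparα-/- mice (adjusted p = 0.063). With the CTRL diet Rxrg exceeded WT by 1.17 ± 0.17 in Pparα hep-/- (2.24-fold, adjusted p = 2.51e-06) and by 0.80 ± 0.18 in Pparα-/- mice (1.74-fold, adjusted p = 0.000528), with 8 of 8 mice above the WT mean in each. The higher endothelial and Kupffer cell markers of the hepatocyte line, given with Pparg, belong to this comparison. In Pparα-/- mice 2 of 5 endothelial markers (40%) and 1 of 5 Kupffer cell markers (20%) were called higher, against 35.3% of all gene names. The part of these cells in the Rxrg values was not tested. Within wash batches 1 and 2 the Rxrg response of WT mice was 1.37 and 1.00, and the CTRL difference was 1.25 and 1.07 for Pparα hep-/- and 1.06 and 0.63 for Pparα-/- (adjusted p = 0.0927 for the last).

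The smaller HFD response of Rxrg in the deletion lines was past the threshold in the difference itself, at -0.71 ± 0.24 for Pparα hep-/- minus WT (adjusted p = 0.0443) and -0.72 ± 0.24 for Pparα-/- minus WT (adjusted p = 0.0375). These calls did not hold without array weights, where the values were -0.33 (adjusted p = 0.693) and -0.39 (adjusted p = 0.475), and the second was -0.68 with median centring (adjusted p = 0.0544). The first was also lost without the wash term or the filter, with slide or replicate as a block, and with only the groups compared. The calls each passed in 8 of 14 alternative settings. They passed in 28 and in 38 of 48 fits that left out 1 array, and without WT HFD mouse 7 the values were -0.60 (adjusted p = 0.13) and -0.62 (adjusted p = 0.0936). On the HFD Rxrg remained above WT in Pparα hep-/- mice by 0.45 (adjusted p = 0.0283), a call lost without Pparα hep-/- HFD mouse 6 (0.45, adjusted p = 0.0598), Pparα hep-/- HFD mouse 7 (0.38, adjusted p = 0.0843) or WT HFD mouse 1 (0.36, adjusted p = 0.0655). In Pparα-/- mice the difference from WT on the HFD was 0.08 (adjusted p = 0.703), or 0.31 as a plain difference of means. On that diet Rxrg was lower in Pparα-/- mice than in the hepatocyte line by 0.37 (adjusted p = 0.0482), which passed in 20 of 48 fits that left out 1 array and was -0.36 without array weights (adjusted p = 0.282).

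**Figure D3:**
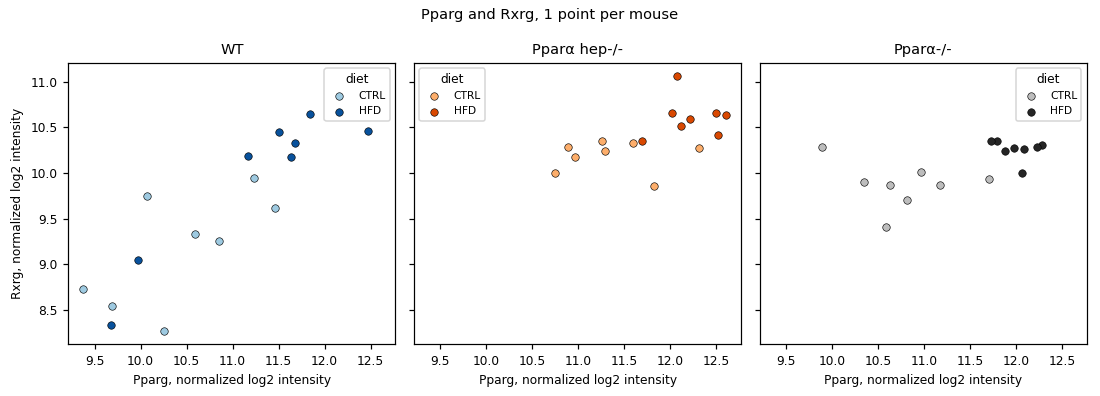
Normalized log2 intensity of Rxrg against that of Pparg, 1 point per mouse, in 3 panels by genotype and coloured by diet. WT mice run from low values of both genes to high values of both, and no mouse of the deletion lines has Rxrg below 9.41.

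Across the 48 arrays, with wash batch means removed, Pparg and Rxrg had the highest correlation of the 28 pairs of members (r = 0.78), which is given as a description because the pair was chosen for it. Within groups of 8 mice, r was 0.66 in WT CTRL and 0.93 in WT HFD mice, 0.02 and 0.08 in Pparα hep-/- and -0.23 and -0.25 in Pparα-/- mice. In WT HFD mice r was 0.51 without the 2 mice farthest from the Pparg median, so much of that relation rests on them. Leaving out such a pair of mice moved r to 0.72 in Pparα hep-/- CTRL and -0.48 in Pparα hep-/- HFD mice, so the values in these narrow groups are loose. Within wash batches of 24 arrays r was 0.76 and 0.82, and Spearman's rho 0.72 and 0.83. Rxrb ran the opposite way, with r = -0.67 against Pparg and -0.67 against Rxrg. The points share diet and genotype, and the differences between these values were not tested.

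Rxra, the main RXR isotype of hepatocytes, was called in 3 comparisons. Its bright probe A_55_P2931478 had group medians between 16.13 and 16.33. It differed on the HFD in Pparα hep-/- mice by 0.15 (adjusted p = 0.0416), but the sign turned with median centring (-0.04, adjusted p = 0.675) and with the processed signal scaled to the 75th percentile (-0.03, adjusted p = 0.777). This call also failed in 9 of 48 fits with 1 array left out, with 0.12 (adjusted p = 0.101) without Pparα hep-/- CTRL mouse 5. At the dimmer probe A_51_P307370, Pparα hep-/- HFD mice lay below WT by 0.29 (adjusted p = 0.00851), or 0.25 without array weights (adjusted p = 0.161), and below Pparα-/- by 0.24 (adjusted p = 0.0171), or 0.21 without array weights (adjusted p = 0.215). The latter was also lost without Pparα hep-/- HFD mouse 6 (0.21, adjusted p = 0.0688).

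Rxrb, the ubiquitous RXR isotype, was slightly lower in the deletion lines. At its brightest probe, A_55_P2008609, the lowest, median and highest values were 12.57, 12.64 and 12.75 in WT CTRL and 12.48, 12.58 and 12.70 in WT HFD mice. The hepatocyte line on the HFD had 12.35, 12.45 and 12.48, all below the WT HFD mice, though the highest and the lowest mice of the 2 groups nearly touch. The differences from WT were -0.15 and -0.17 in Pparα hep-/- mice on the CTRL diet and the HFD (adjusted p = 0.00305 and 0.000428) and -0.14 and -0.12 in Pparα-/- mice (adjusted p = 0.00613 and 0.00413). With median centring the first was -0.12 (adjusted p = 0.0717).

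The other Rxrb probes passed only between genotypes on the HFD. Pparα-/- mice lay below WT by 0.28 at A_55_P2718880 (adjusted p = 0.000332) and by 0.27 at A_51_P314830 (adjusted p = 0.000101), and Pparα hep-/- mice by 0.25 at the former (adjusted p = 0.00336), or 0.19 without array weights (adjusted p = 0.1). A_51_P314830 was also lower in Pparα-/- mice than in the hepatocyte line by 0.19 (adjusted p = 0.00499), or 0.18 without array weights (adjusted p = 0.0586). On the HFD 4 of 5 endothelial markers were called higher than in WT in each deletion line (80%). All gene names gave 28.6% called for Pparα hep-/- and 47.8% for Pparα-/- mice. Between the deletion lines 2 of 5 were called higher in Pparα-/- mice (40%, against 31.9%). The endothelial sums had medians of 13330 in Pparα-/-, 8998 in Pparα hep-/- and 7172 in WT mice. Their part in the Rxrb values was not tested.

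Ppargc1a, which encodes the coactivator PGC-1α, had 2 probes that ran alike. At A_55_P2745394 the lowest, median and highest log2 intensities were 7.31, 7.81 and 8.37 in WT CTRL and 6.93, 7.19 and 7.51 in WT HFD mice. The hepatocyte line had 7.32, 7.64 and 8.13 on the CTRL diet and 6.87, 7.55 and 8.08 on the HFD. Pparα-/- mice had 6.30, 6.94 and 7.30 on the CTRL diet and 6.89, 7.05 and 7.15 on the HFD. Every Pparα-/- CTRL mouse lay below every WT and every Pparα hep-/- CTRL mouse at this probe, though the nearest mice almost touch.

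**Figure D4:**
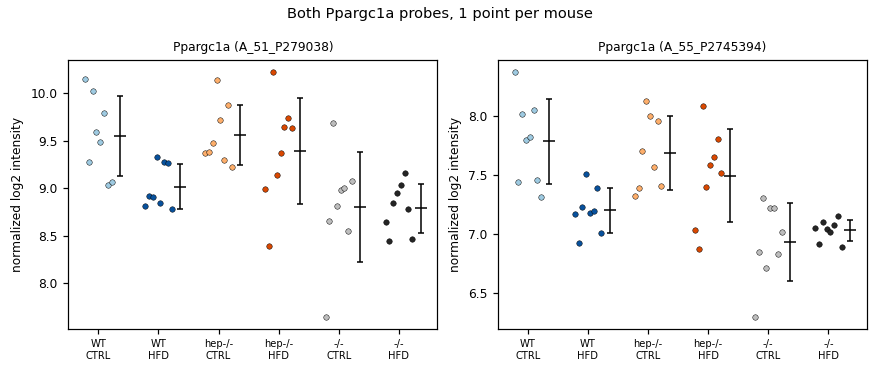
Normalized log2 intensity of the 2 Ppargc1a probes in each mouse (points), with group mean and SD. In both panels the WT and Pparα hep-/- CTRL groups are high, and the WT HFD and both Pparα-/- groups are low.

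On the HFD Ppargc1a fell in WT mice by 0.56 ± 0.15 at A_55_P2745394 (adjusted p = 0.00669) and by 0.55 ± 0.20 at A_51_P279038 (adjusted p = 0.0451). The second call was near the threshold: without array weights the difference was -0.54 (adjusted p = 0.0506), and it failed in 11 of 48 fits with 1 array left out, with -0.41 (adjusted p = 0.172) without WT CTRL mouse 1. Within wash batches 1 and 2 the fall at A_55_P2745394 was -0.42 and -0.70 (adjusted p = 0.183 and 0.0903). The hepatocyte line gave -0.20 and -0.17 (adjusted p = 0.276 and 0.507), and in Pparα-/- mice 0.12 and 0.05 (adjusted p = 0.542 and 0.861).

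On the CTRL diet Ppargc1a was lower in Pparα-/- than in WT mice by 0.86 ± 0.15 at A_55_P2745394 (0.549-fold, adjusted p = 1.54e-05) and by 0.83 ± 0.20 at A_51_P279038 (adjusted p = 0.001). Against the hepatocyte line it was lower by 0.81 ± 0.14 (adjusted p = 1.15e-05) and 0.87 ± 0.18 (adjusted p = 0.000179). Pparα hep-/- was not distinguishable from WT, with -0.06 (95% interval -0.36 to 0.24) and 0.05 (-0.34 to 0.43). Within wash batches 1 and 2 the Pparα-/- minus WT difference at A_55_P2745394 was -0.85 and -0.90. The endothelial marker sum separated the same CTRL groups, running from 8598 to 12530 in Pparα-/-, 4936 to 7109 in WT and 6573 to 8254 in Pparα hep-/- mice, with 2 of 5 markers called higher in Pparα-/- than in WT (40%, against 35.3% of all gene names) and 1 of 5 than in Pparα hep-/- mice (20%, against 26.6%). Its part in the Ppargc1a values was not tested.

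On the HFD Ppargc1a in Pparα-/- mice lay below Pparα hep-/- mice by 0.48 (adjusted p = 0.00238) and 0.65 (adjusted p = 0.00143), whereas the difference from WT was -0.18 and -0.23 (adjusted p = 0.277 and 0.284). The HFD response in Pparα-/- minus that in WT was 0.69 ± 0.20 at A_55_P2745394 (adjusted p = 0.0187) and 0.60 ± 0.26 at A_51_P279038 (adjusted p = 0.117).

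Ppargc1b, which encodes PGC-1β, a coactivator linked to mitochondrial and lipogenic genes, ran lower on the HFD. At A_51_P294891 the group medians on the CTRL diet and the HFD were 10.29 and 10.18 in WT, 10.27 and 9.83 in Pparα hep-/- and 10.20 and 9.97 in Pparα-/- mice, and the groups overlapped. The HFD difference there was -0.50 in Pparα hep-/- mice (adjusted p = 0.0102), -0.39 in Pparα-/- mice (adjusted p = 0.051) and -0.30 in WT mice (adjusted p = 0.224). At A_65_P02810 these were -0.45 (adjusted p = 0.0178), -0.49 (adjusted p = 0.0112) and -0.34 (adjusted p = 0.148). The HFD response in Pparα hep-/- minus that in WT was -0.20 and -0.11 at these probes (adjusted p = 0.601 and 0.788). For Pparα-/- minus WT it was -0.08 and -0.15 (adjusted p = 0.84 and 0.698). None of the Ppargc1b calls held without array weights, where the adjusted p was between 0.15 and 0.459. On the HFD Pparα hep-/- lay below WT by 0.40 and 0.39 (adjusted p = 0.0384 and 0.0407), which passed in 39 and 38 of 48 fits that left out 1 array.

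Single arrays decided several of these Ppargc1b calls. The HFD call at A_51_P294891 was lost without Pparα hep-/- HFD mouse 6 (-0.43, adjusted p = 0.0577). At A_65_P02810 it was lost without that mouse (-0.36, adjusted p = 0.109), Pparα hep-/- CTRL mouse 4 (-0.43, adjusted p = 0.0501) or mouse 6 (-0.37, adjusted p = 0.0631), and in Pparα-/- mice without CTRL mouse 6 (-0.40, adjusted p = 0.0547). Calls were also gained. Without WT CTRL mouse 4 the fall in WT mice passed at A_51_P294891 (-0.47, adjusted p = 0.0388) and A_65_P02810 (-0.51, adjusted p = 0.0219). The fall in Pparα-/- mice at A_51_P294891 passed without certain arrays, such as Pparα-/- HFD mouse 1 (-0.43, adjusted p = 0.029).

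**Figure D5:**
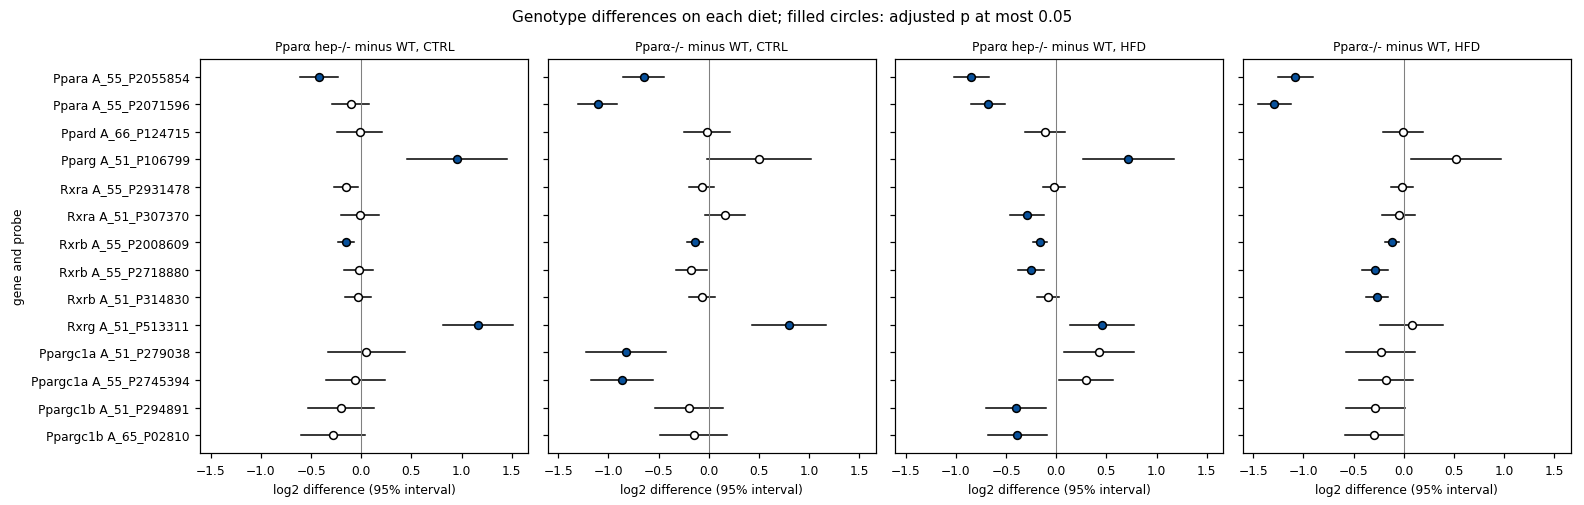
Log2 difference from WT, with its 95% interval, for the 14 tested probes in each deletion line on each diet; filled circles passed at an adjusted p of at most 0.05. On the CTRL diet Rxrg is filled right of 0 in both lines, and Ppargc1a is filled left of 0 in Pparα-/- mice and unfilled near 0 in the hepatocyte line.

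Counted over the 14 tested probes, 6 were called for the HFD in WT mice, where 18.7% of all probes were called. The count was 4 in Pparα hep-/- mice (20.2% of all probes) and 3 in Pparα-/- mice (24.8%). Against WT on the CTRL diet, 4 probes were called in Pparα hep-/- (24.7%) and 6 in Pparα-/- mice (34.2%), and on the HFD 9 (26.7%) and 5 (45.7%). Pparα-/- differed from Pparα hep-/- mice at 3 probes on the CTRL diet (25.2%) and 7 on the HFD (30.6%). The differences in HFD response gave 3 (10.4%), 3 (14.3%) and 1 (3.42%) calls for Pparα hep-/- minus WT, Pparα-/- minus WT and Pparα-/- minus Pparα hep-/-. As a share of the 14 probes, which include 2 of the deleted gene Ppara, the count lay above the background in 9 of the 12 comparisons. It lay below for the HFD in Pparα-/- mice (21.4%), for Pparα-/- against Pparα hep-/- on the CTRL diet (21.4%) and for Pparα-/- against WT on the HFD (35.7%). Probes of 1 gene share their transcript, so these are fewer than 14 independent values.

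Groups that did not overlap were rarer. Between the diets there were 2 such probes in Pparα-/- mice (1.44% of all probes), namely Pparg and Ppara A_55_P2071596, 1 in the hepatocyte line, Rxrg (0.591%), and 0 in WT mice (0.603%). On the CTRL diet 2 probes, Ppara A_55_P2071596 and Ppargc1a A_55_P2745394, separated Pparα-/- from WT mice (6.15%), that Ppargc1a probe also separated Pparα-/- from the hepatocyte line (4.43%), and 0 separated the hepatocyte line from WT (1.31%). On the HFD 3 probes, both of Ppara and Rxrb A_55_P2008609, separated the hepatocyte line from WT (1.44%). Both Ppara probes separated Pparα-/- from WT mice (6.93%), and Ppara A_55_P2071596 separated the deletion lines (6.55%).

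The genes associated with PPARγ in lipid storage, of which 18 of 20 were tested, were called higher at 9 and lower at 1 on the HFD in WT mice, with a median difference of 0.60. Over all 22029 gene names 19.5% were called and the median was 0.00. Cfd, which encodes adipsin and is also among the white adipocyte markers, rose by 5.79 (adjusted p = 3.81e-07), and the lipid droplet genes Cidea and Plin4 rose by 2.64 and 2.56 (adjusted p = 7.46e-05 and 0.000281). Lpl, lipoprotein lipase, fell by 1.26 (adjusted p = 0.0147). The white and brown adipocyte marker sums had medians of 462 and 18770, and of 2714 and 5030, on the CTRL diet and the HFD in these mice. These sums share Cfd and Cidea with the list, so they are not separate from it. Cfd was the only called gene of the 3 tested white markers, and the median difference of those markers was 0.06. The part of adipocytes in the list's values was not tested.

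In Pparα hep-/- mice 7 of these 18 genes rose and 1 fell on the HFD (22.5% of all gene names called), with Cidec up by 2.68 and Plin4 by 2.65 (adjusted p = 0.00045 and 2.11e-05). In Pparα-/- mice 7 rose and none fell (26.4% of all gene names), with Plin4 up by 3.64 and the fatty acid transporter Cd36 by 1.503 (adjusted p = 1.6e-07 and 0.000115). The recruited macrophage sums of both lines, given with Pparg, were higher in these comparisons, and their part was not tested. On the CTRL diet, where Pparα hep-/- mice had more Pparg than WT, 6 were higher and 4 lower (25.2% of all gene names), led by Mogat2 (3.37) and Cd36 (1.84, adjusted p = 1.27e-05) and, downwards, Plin5 (-1.48). In Pparα-/- mice against WT 3 were higher and 7 lower on the CTRL diet (35.3% of all gene names, list median -0.15), and 6 higher and 8 lower on the HFD (47.8%, list median -0.43). The Cfd response differed from WT by -5.21 in the hepatocyte line and -5.14 in Pparα-/- mice (adjusted p = 0.000422 and 0.000336), values not followed without array weights.

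Of the fatty acid oxidation genes known as PPARα targets, 29 of 30 were tested. On the HFD 21 rose and none fell in WT, 16 rose and 1 fell in Pparα hep-/- and 16 rose and none fell in Pparα-/- mice, with medians of 0.55, 0.50 and 0.50, where 19.5%, 22.5% and 26.4% of all gene names were called. The adipocyte marker sums in WT mice and the recruited macrophage sums in the deletion lines were higher on the HFD in the same comparisons, and their part was not tested. Of these on the CTRL diet, 11 were lower and 3 higher than WT in the hepatocyte line, and 18 lower and 4 higher in Pparα-/- mice, where all gene names gave 25.2% and 35.3% called. Vnn1, which encodes pantetheinase, differed by -2.12 and -3.57 in the 2 lines. Pdk4, a kinase that shuts off pyruvate oxidation, was higher by 2.69 and 1.62, and Acot2, a mitochondrial thioesterase whose values ran with Rxrg, by 1.83 and 1.14.

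Among the other nuclear receptors that pair with RXRs, 12 of 13 were tested. Nr1i3, which encodes the xenobiotic receptor CAR, rose on the HFD in WT mice by 1.04 (adjusted p = 1.85e-05). It was above WT on the CTRL diet by 1.11 in the hepatocyte line and 1.57 in Pparα-/- mice (adjusted p = 1.62e-06 and 2.7e-10), and its HFD response was smaller by -0.71 and -0.80 (adjusted p = 0.0314 and 0.0133). These signs are those of Rxrg, whose response calls were lost without array weights. Over all probes, the response calls for the 2 lines fell there from 3472 to 298 and from 4781 to 1740. Nr1i3 itself was not followed without array weights. No gene of the list was called on the HFD in Pparα hep-/- mice, while 3 rose and 1 fell in WT and 4 rose in Pparα-/- mice. The shares of the list were 0%, 33.3% and 33.3%, against 22.5%, 19.5% and 26.4% of all gene names.

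Of the coregulator genes, 24 of 25 were tested. On the HFD in WT mice 2 rose and 5 fell (29.2%, against 19.5% of all gene names), and Pprc1, the PGC-1-related coactivator, fell by 0.76 (adjusted p = 0.000316). Pprc1 was lower than in WT on the CTRL diet by 0.63 in the hepatocyte line and 0.56 in Pparα-/- mice (adjusted p = 0.00114 and 0.00367). Its HFD response exceeded that of WT by 0.70 and 0.81 (adjusted p = 0.0194 and 0.00512), values not followed without array weights. Crebbp, which encodes the acetyltransferase CBP, was higher than in WT on the HFD by 1.00 in the hepatocyte line and 1.52 in Pparα-/- mice (adjusted p = 0.000162 and 1.33e-08).

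All 21 genes of PGC-1 partners and mitochondrial biogenesis were tested. On the HFD in WT mice 5 rose and none fell (23.8%, near the 19.5% of all gene names), led by Esrrg, an estrogen-related receptor and PGC-1α partner, at 1.07 (adjusted p = 0.00114). On the HFD Esrrg was below WT by -1.73 in the hepatocyte line and -1.33 in Pparα-/- mice (adjusted p = 3.19e-08 and 1.03e-06). In Pparα-/- against WT CTRL mice, where Ppargc1a was low, 5 were higher and 5 lower (47.6%, against 35.3% of all gene names), with the citric acid cycle genes Idh3a and Cs at -0.57 and -0.36 (adjusted p = 0.000171 and 0.0222).

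All 12 gluconeogenesis genes were tested. In Pparα-/- against Pparα hep-/- mice on the CTRL diet, where Ppargc1a was low, 2 were higher and 2 lower (33.3%, against 26.6% of all gene names). G6pc, the catalytic subunit of glucose-6-phosphatase, was lower by -1.33 (adjusted p = 0.000915), and on the HFD by -1.18 (adjusted p = 0.000861). The other lower gene was Fbp1, fructose bisphosphatase (-0.25), and the higher ones were Sik1, a kinase that restrains gluconeogenic transcription (0.57), and Nr3c1, the glucocorticoid receptor (0.23). Against WT on the CTRL diet only Hnf4a, a hepatocyte master regulator, was called (-0.43, adjusted p = 0.00144), so 1 of 12 genes moved where 35.3% of all gene names did.

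The gene names whose values over the 48 arrays were most like Pparg, after wash batch means were removed, were Akr1a1 (r = 0.92), Gpc1 (r = 0.90) and Cd36 (r = 0.89). Those most like Rxrg were Pctp (r = 0.92), Gypc (r = 0.89) and Acot2 (r = 0.89), and those most like Ppara were Acot8 (r = 0.87), Eci3 (r = 0.87) and NAP111802-1 (r = 0.87). For Ppargc1a the highest values were lower, at 0.71 for ENSMUST00000185927, 0.70 for D7Ertd143e and 0.70 for Mtdh. For Ppargc1b they were AA209734 (r = 0.78), Jade1 (r = 0.77) and Ypel5 (r = 0.77), for Rxrb B9d2 (r = 0.80), Gtf2ird2 (r = 0.79) and Dda1 (r = 0.78), and for Rxra Tmem41a (r = 0.73), Arl16 (r = 0.70) and Lrrc42 (r = 0.69). For Ppard they were Defa-rs10 (r = 0.75), a transcribed region of chromosome 2 with no gene symbol (r = 0.73) and D230040A04Rik (r = 0.71). Each is the highest of 22029 gene names, and the arrays share diet and genotype, so these are descriptions.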

How the data were processed

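Hepatic RNA of 48 mice was hybridised to Agilent SurePrint G3 mouse arrays, and the authors extracted spot intensities with Agilent Feature Extraction 10.10.1.1. The deposited scanner files give median pixel intensity, background and flags per spot, not yet normalized, with probe coordinates in mm9. The deposited value table holds the authors' log2 values, which correlated with those used here at r = 0.9994 to 0.9995 per array and served as an alternative.

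From the intensities, control and outlier spots were dropped, log2 values were averaged per probe, and a probe was kept when flagged as well above background in 4 or more of the 8 arrays of any group, which left 195 missing values among 33323 probes. Values were quantile normalized and fitted with limma 3.58.1 (R 4.3.3) as 6 group means, a wash batch term and array weights (0.189 to 2.53). P-values were adjusted by Benjamini-Hochberg within each of 12 comparisons and called at 0.05 or below. Values after ± are SE. Probes with a missing value were fitted on the arrays left. The fit was tested on simulated data. Each group is 8 separate mice, and the number of arrays limits the precision. Median intensities were 56 to 91 per array with local background between 20 and 36, and saturation was flagged at 0 spots.

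The members and gene lists were chosen with earlier results of these data known. All 8 members are named with every probe. Genes named from a list were among the 3 called genes per direction with the largest change, each by its brightest probe, as were the 3 gene names most correlated with each member. Alternatives changed the weights, batch terms, background, scaling, filter, samples and value table, or left out each array in turn. They were read for the member probes and not for the genes of the lists. No sequence of Ppargc1b is shown.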

Additional observations from a re-analysis of the deposited data

Results flagged for a closer look

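Of 84 groups of 8 mice (14 probes in 6 groups), 13 held a mouse whose gap to the next, over the range of its group, passed the limit of 0.526, where chance gives about 1 in 20. Pparα-/- CTRL mouse 3 was such a mouse for Ppard (0.718), Rxra A_55_P2931478 (0.578) and Ppargc1b A_65_P02810 (0.59), and Pparα-/- HFD mouse 6 for Ppard (0.707). WT CTRL mouse 6 stood apart for Rxra A_51_P307370 (0.681) and for Rxrb A_55_P2718880 (0.581) and A_51_P314830 (0.556), and WT HFD mouse 6 for Rxrb A_55_P2718880 (0.636). Pparα hep-/- CTRL mouse 1 stood apart at both Ppara probes (0.662 and 0.697). The rest were Pparα hep-/- HFD mouse 4 for Rxra A_55_P2931478 (0.527), and Pparα hep-/- HFD mouse 7 (0.569) and Pparα-/- HFD mouse 2 (0.689) for Rxrg.

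The HFD response differed between genotypes, by the difference itself in limma, in 7 cases. For Pparα hep-/- minus WT the values were -0.42 at Ppara A_55_P2055854, -0.58 at Ppara A_55_P2071596 and -0.71 at Rxrg. For Pparα-/- minus WT they were -0.43 at Ppara A_55_P2055854, -0.72 at Rxrg and 0.69 at Ppargc1a A_55_P2745394. For Pparα-/- minus Pparα hep-/- the value was 0.40 at Ppara A_55_P2071596. Without array weights only the Ppargc1a difference remained past the threshold (0.68, adjusted p = 0.0406).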

How the results depend on the processing

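Of the 54 calls among 168 results (14 probes in 12 comparisons), 38 passed with each of the 48 arrays left out in turn, and none changed sign there. Without array weights 33 of the 54 held, 41 without the filter on dim probes, 45 without the wash term, 46 with slide as a block, and 54 with slide as a random block or with the stricter filter. Without the 2 or the 4 arrays of lowest weight, settings chosen after seeing the data, 52 held in each. Within wash batch 1 and batch 2, each with about 4 mice a group, 25 and 21 passed. Under each scaling the median over all probes lay between -0.086 and 0.0086, but in the 6 comparisons with a deletion line on the HFD and either its CTRL diet or WT, the share of higher among called probes was 44.4% to 49.7%, and 29.9% to 39.8% at the 75th percentile or with median centring. Only the HFD call of Rxra A_55_P2931478 in Pparα hep-/- mice changed sign, to -0.0425 with median centring and -0.0281 at the 75th percentile. The causes were not tested, beyond the smaller number of arrays within a batch.

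Counts of called probes moved by over 1.5 times in these cases. The HFD count in WT mice (6) was 1 in batch 2. That in Pparα hep-/- mice (4) was 0 without weights, 2 without the filter, 1 in batch 1 and 0 in batch 2. That in Pparα-/- mice (3) was 6 at the 75th percentile, 5 with only the groups compared and 1 in batch 1. On the CTRL diet, Pparα hep-/- against WT (4) gave 1 and 2 in the batches, and Pparα-/- against Pparα hep-/- (3) gave 5 with only the groups compared. On the HFD, Pparα hep-/- against WT (9) gave 5 without weights and 2 and 4 in the batches, Pparα-/- against WT (5) gave 3 in batch 1, and Pparα-/- against Pparα hep-/- (7) gave 3 without weights, 4 without the filter and 4 and 1 in the batches. The response of Pparα hep-/- minus WT (3) gave 0 without weights, 1 without the wash term, with slide as a block, without the filter, with only the groups compared and in batch 1, and 0 in batch 2. That of Pparα-/- minus WT (3) gave 1 without weights, without the wash term and without the filter, and 0 in each batch. That of Pparα-/- minus Pparα hep-/- (1) gave 0 without weights, without the wash term, with slide as a block, at the 75th percentile, with normexp, without the filter, with the authors' values and in each batch.

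With 1 array left out, the counts ran from 5 to 7, 1 to 5 and 2 to 5 for the HFD in WT, Pparα hep-/- and Pparα-/- mice. They ran from 4 to 6, 6 to 7 and 3 to 5 on the CTRL diet, and from 6 to 11, 5 to 6 and 5 to 7 on the HFD, for Pparα hep-/- and Pparα-/- against WT and Pparα-/- against Pparα hep-/-. The differences in response ran from 1 to 3, 1 to 3 and 0 to 1.

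Replicate numbers were not treated as pairs. The 120 same-numbered pairs had a median r of 0.02 (-0.45 to 0.69), against -0.0023 for the 840 pairs with other numbers. Of the same-numbered pairs 35 correlated above 0.1, and 11 of 48 arrays matched best with their own number. The shares that chance gives were not worked out, so these values do not exclude pairing. With the replicate block, 50 of the 54 calls held, the Rxrg response to the HFD in Pparα hep-/- mice passed (0.46, adjusted p = 0.0271), and the differences in response gave 1 call for Pparα hep-/- minus WT and 0 for Pparα-/- minus Pparα hep-/-.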
